A study of Mus musculus with 6 samples.

Results

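The extracellular matrix of a vessel comes in 2 layers, the basement membrane that lies against the endothelium and the interstitial matrix beyond it. The 54 genes examined here encode proteins of these layers, 22 of the basement membrane and 32 of the interstitial matrix, out of 22911 named genes on the array. The genes come from a list drawn up with earlier results of these data known, and every array probe whose RefSeq accession belongs to 1 of them was taken, which gave 88 probes. Transcripts were measured on 6 one-color Agilent arrays of endothelial cells sorted from the small intestine of female mice. VECs (n = 3 arrays, VEC 2, 3 and 4) were the CD45- CD31+ CD90- cells of blood vessels. LECs (n = 3 arrays, LEC 6, 7 and 8) were the CD45- CD31+ CD90+ cells of lymphatic vessels.

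No treatment is named for either group, and the strain and age of the mice used for the arrays are not given in the sources used here. Cells were released with collagenase, an enzyme that digests collagen protein, and up to 10000 cells of a population were sorted into each sample. Whether a sample came from 1 mouse or from several is also not given, so p-values measure the spread between these samples, which may be technical. The description field of all 6 samples names VECs, whereas titles and source names separate VECs from LECs, and the groups here follow titles and source names. Thy1, which encodes the gate protein CD90, was 1319-fold higher in the LEC arrays, and all 7 lymphatic markers (among them Prox1, Lyve1 and Pdpn) were higher there. Of 7 blood endothelial markers, 6 were lower in LECs and Gpihbp1, the capillary protein that binds lipoprotein lipase, was 4.65-fold higher. All 6 arrays lay on 1 slide and were scanned on 1 day. Their 75th percentile of intensity ranged from 333 to 375 in VECs and from 381 to 441 in LECs, and 30930 to 35510 probes per array were well above background.

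As background, a basement membrane is a thin sheet in which a network of laminins and a network of type IV collagen are tied together by nidogens and the heparan sulfate proteoglycans perlecan and agrin. Blood capillaries rest on a continuous sheet of this kind. Lymphatic capillaries are known for a thin and discontinuous one, and are held to the surrounding tissue by elastic microfibrils and collagen fibers. The interstitial matrix is built from fibrillar collagens, beaded and fibril-associated collagens, proteoglycans, elastic fibers and fibronectin, and matricellular proteins such as SPARC and tenascin modulate how cells attach to it.

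Levels are given as the normalized log2 signal, that is, the log2 intensity minus the 75th percentile of the array, so that 0 stands for the 75th percentile and 1 unit for a 2-fold difference. Values are always listed in the order VEC 2, 3, 4 and LEC 6, 7, 8, and a difference is LEC minus VEC with its standard error (SE). Probes whose signal was well above background throughout 1 group or both were tested with limma, and passed at an adjusted p under 0.05. A gene was read from its tested probe with the highest mean signal. Where the dimmer group was not well above background on all 3 arrays, the fold is given as a lower bound ("at least"). For it, a dimmer array counted with its own signal or, where that was lower, with its lowest signal well above background. The bound holds for this background subtraction only. With normexp background correction, an alternative described below, the differences of matrix genes given this way were smaller than their bounds. In sorted bulk samples, fewer cells that make a transcript and less transcript per cell cannot be told apart. Signals of different probes are not comparable as amounts, so each matrix gene is compared only with itself. The marker sums given later add signals of different probes, so genes with bright probes weigh most in them.

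Promoter letters are shown for the members whose window at the outermost annotated start was clear of other genes and whose transcripts differed most, and for neighbors that moved together. Windows were taken from RefSeq on GRCm38.p6. They were found for 36 of the 54 genes (44 windows), and 18 genes had none. The first sequence is the stretch shared by the opposed starts of Col4a1 and Col4a2, which encode the chains of the most common type IV collagen. The genes run away from each other on chromosome 8, and their annotated starts overlap by 22 bases at chr8:11312805-11312826 (plus strand), so both transcripts begin from the same short piece of DNA.

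Col4a1 and Col4a2: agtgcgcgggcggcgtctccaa

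The following 6 sequences are the 120 bases before the start, on the strand of the gene, for Postn (chr3:54359147-54359266, plus), Col18a1 (chr10:77166531-77166650, minus) and Col6a1 (chr10:76726045-76726164, minus), all higher in LECs, and for Sparc (chr11:55420081-55420200, minus), Col8a1 (chr16:57754738-57754857, minus) and Fbln5 (chr12:101819120-101819239, minus), all lower. In these 6, capitals mark GGGCGG, the core of the GC box, on either strand (CCGCCC on the printed one). The stretch of Col4a1 and Col4a2 above was left unmarked, although it also holds the letters GGGCGG.

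Postn: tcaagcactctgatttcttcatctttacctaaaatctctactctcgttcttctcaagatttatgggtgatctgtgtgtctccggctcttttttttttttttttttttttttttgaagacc
Col18a1: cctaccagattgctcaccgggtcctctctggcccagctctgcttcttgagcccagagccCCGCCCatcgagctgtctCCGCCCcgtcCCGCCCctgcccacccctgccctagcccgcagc
Col6a1: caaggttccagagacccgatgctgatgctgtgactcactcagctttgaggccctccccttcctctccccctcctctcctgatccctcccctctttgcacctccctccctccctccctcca
Sparc: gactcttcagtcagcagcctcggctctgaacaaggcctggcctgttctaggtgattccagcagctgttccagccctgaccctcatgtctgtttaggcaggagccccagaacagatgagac
Col8a1: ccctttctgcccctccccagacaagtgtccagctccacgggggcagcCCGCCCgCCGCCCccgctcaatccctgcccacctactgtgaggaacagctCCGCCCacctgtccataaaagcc
Fbln5: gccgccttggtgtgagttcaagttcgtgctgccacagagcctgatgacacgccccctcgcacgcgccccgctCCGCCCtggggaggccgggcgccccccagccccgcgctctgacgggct

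A GC box, a CCAAT box and a TATA box were searched on both strands of the 250 bases before each start. GGGCGG was found in 27 of the 44 member windows (61.4%), against 32.7% of all 32851 windows. CCAAT was found in 11 (25.0%, against 33.8%), and TATAAA in 6 (13.6%, against 12.4%). All 6 windows with TATAAA belonged to interstitial genes (26 windows), and none of the 18 basement membrane windows held these letters. These counts describe letters and not use by a factor, and several windows belong to the same gene.

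Nearly all matrix genes that could be measured differed between the populations, in both directions. Tests were possible for 49 of the 54 genes. In LECs, 21 were higher and 23 lower, and 5 failed the test (limma, adjusted p under 0.05). Over all named genes tested, 34.9% were higher and 32.0% were lower, 66.9% in all. Differences over 2-fold were found for 17 higher and 18 lower members, whereas 12.0% and 13.1% of all named genes passed with that size in each direction. Of the 39 members well above background on all 6 arrays, 15 were higher and 19 were lower, where the background for either direction was 66.3%. The other 10 tested members entered through 1 group only, a filter that favors genes that differ. Lamb3, Lamc3, Lum, Fbln1 and Mfap5 were not well above background on all arrays of either group and were not tested.

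The layers leaned in different directions over all tested genes, but counts of interstitial genes well above background on all arrays were nearly even. Among basement membrane genes, 5 of 20 tested rose and 13 fell from VECs to LECs and 2 failed the test. Over the 15 well above background on all arrays, 4 were higher and 9 lower, with a median difference of -0.67 on the log2 scale. Among interstitial genes, 16 of 29 were higher, 10 were lower and 3 did not pass. Over the 24 well above background on all arrays, 11 were higher and 10 lower, with a median of 0.43. The other 5 tested interstitial genes entered through the LEC group only, a filter that favors genes higher there. The median over all named genes tested was 0.02. The difference between the layers itself was not tested. The plot of differences by gene shows both layers side by side.

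**Figure D1:**
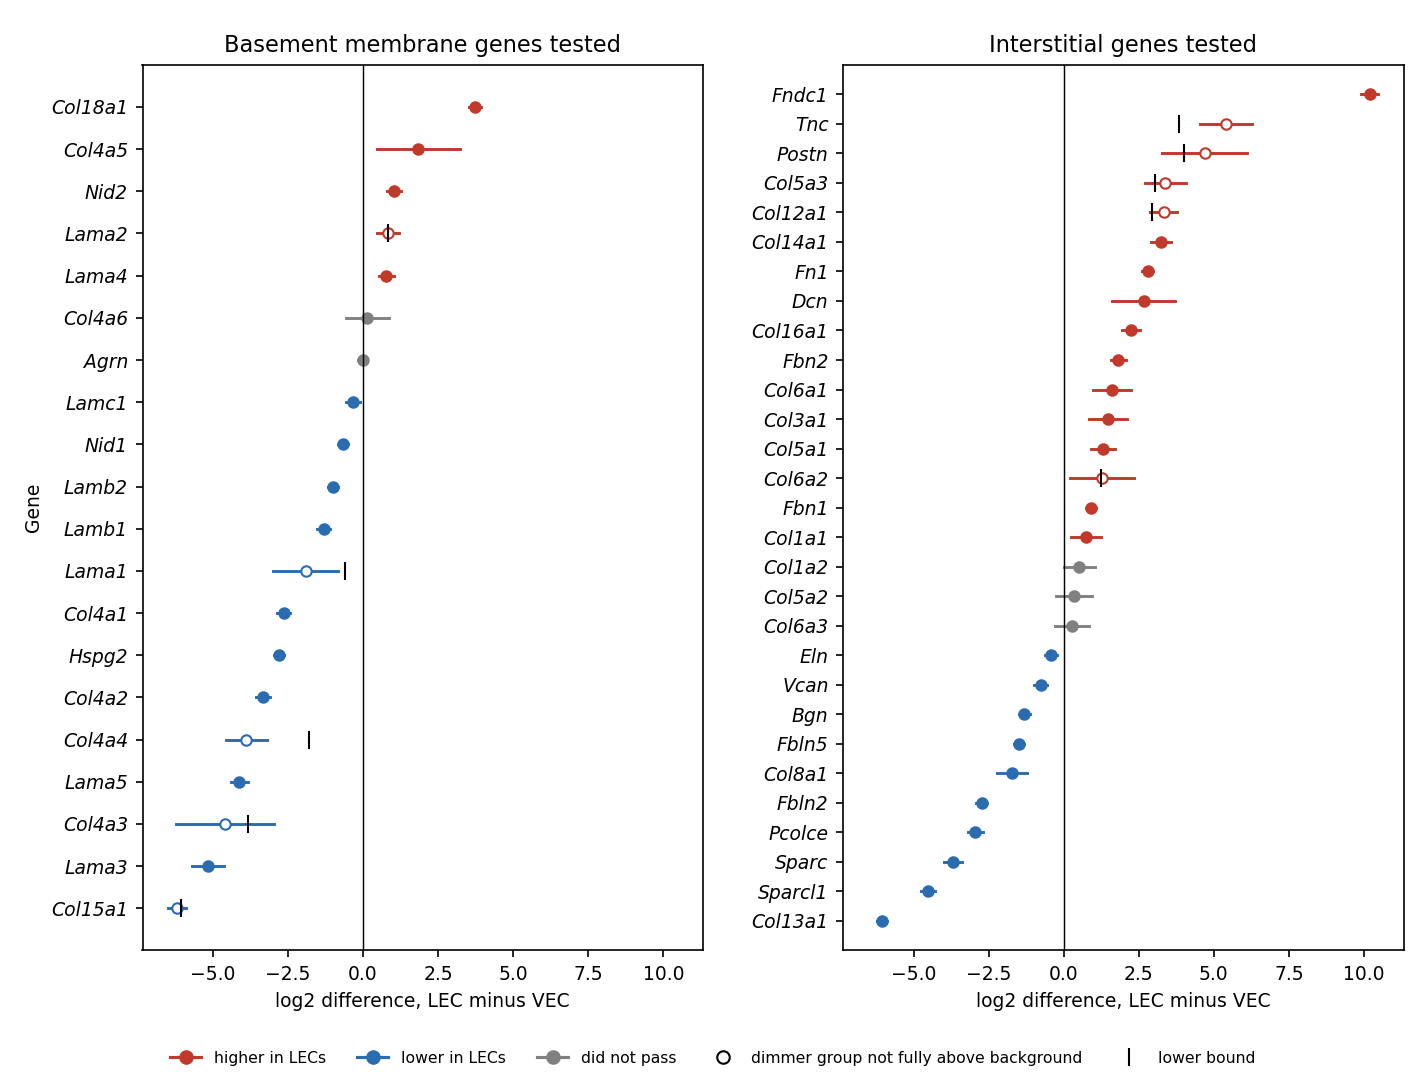
Difference in normalized log2 signal (LEC minus VEC, x axis) of the 49 tested matrix genes, basement membrane genes on the left and interstitial genes on the right. Points are limma estimates with 95% confidence intervals (n = 3 arrays per group), open where the dimmer group was not well above background on all its arrays, and black ticks give the lower bound there. Basement membrane genes lie mostly left of 0 (13 of 20 lower), interstitial genes mostly right of 0 (16 of 29 higher), and Fndc1 stands farthest right at 10.19. With open points set aside, 4 basement membrane genes are higher and 9 lower (of 15). Interstitial genes are then 11 higher and 10 lower (of 24).

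Type IV collagen, the sheet-forming collagen of basement membranes, was lower in LECs for 4 of its 6 chains. Levels of Col4a1 were 6.75, 6.84 and 6.59 in VECs and 4.14, 4.01 and 4.09 in LECs on the normalized log2 scale. Those of its partner Col4a2 were 6.34, 6.35 and 6.12 against 3.05, 2.83 and 2.92. The groups lay far apart for both, and all arrays of a group lay close together. Col4a1 was 6.25-fold lower (difference -2.64, SE 0.09, limma adjusted p = 3.3e-06) and Col4a2, which begins from the shared stretch printed above, was 10.1-fold lower (difference -3.34, SE 0.10, adjusted p = 2.0e-06).

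The minor chains were split. Col4a3 read -0.54, -0.30 and -0.69 in VECs and -6.06, -3.51 and -5.76 in LECs, of which only LEC 7 was well above background. It was at least 14.3-fold lower (adjusted p = 0.0015), and the log2 difference of -4.60 became -5.40 without LEC 7. Its neighbor Col4a4 was well above background on no LEC array and was at least 3.51-fold lower (adjusted p = 6.9e-05). With Col4a5, these chains form the collagen IV of the kidney glomerulus, where their loss causes Alport syndrome. Col4a5 itself went the other way, at -4.32, -4.04 and -2.14 in VECs and -1.65, -1.62 and -1.69 in LECs. The LEC arrays agreed closely, whereas VEC 4 lay near the LEC arrays and apart from VEC 2 and 3. The probe passed (difference 1.85, SE 0.56, adjusted p = 0.029), but the other Col4a5 probe gave 0.02 (SE 0.20, adjusted p = 0.94), and the call was lost when any array but VEC 4 was left out, with differences from 1.44 to 1.87, against 2.53 without VEC 4. Col4a6, which lies head to head with Col4a5 on the X chromosome with 1343 bases between the starts, did not pass (difference 0.14, SE 0.29, adjusted p = 0.69), and its groups overlapped.

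**Figure D2:**
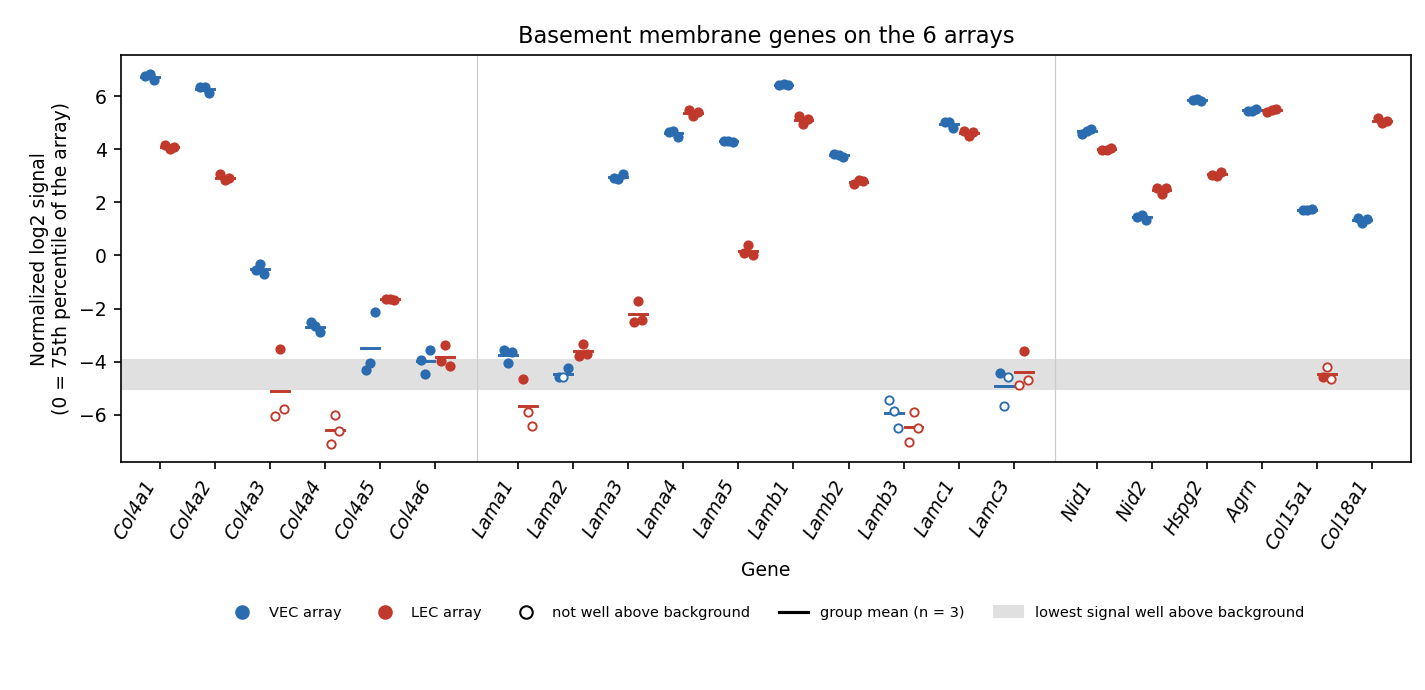
Normalized log2 signal (y axis, 0 is the 75th percentile of the array) of the 22 basement membrane genes (x axis, in the order collagen IV, laminins, linkers) on the 3 VEC and 3 LEC arrays, with bars at the group means. Open points were not well above background, and gray shading marks the range, over the arrays, of the faintest signal called above background. Lama5, Lama3, Hspg2 and Col15a1 show VEC points far above LEC points, Col18a1 shows the reverse, and Agrn points coincide.

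Laminins are cross-shaped trimers of an alpha, a beta and a gamma chain, and the alpha chain sets which receptors they bind. Of 8 chains tested, 6 were lower in LECs and 2 were higher. The alpha 5 chain Lama5, found with the alpha 4 chain in vascular basement membranes, stood at 4.32, 4.32 and 4.26 in VECs and at 0.11, 0.41 and 0.00 in LECs. For Lama3, the alpha chain of epithelial anchoring laminins, levels were 2.91, 2.89 and 3.07 in VECs and -2.49, -1.72 and -2.43 in LECs. Neither gene came near to an overlap between groups. Lama3 was 36.0-fold lower in LECs (difference -5.17, SE 0.22, adjusted p = 7.8e-06) and Lama5 was 17.5-fold lower (difference -4.13, SE 0.11, adjusted p = 1.7e-06). The second Lama3 probe gave a difference of -5.83, a lower bound of 51.0-fold.

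The alpha 4 chain Lama4 moved the other way. It stood at 4.66, 4.70 and 4.45 in VECs and at 5.48, 5.25 and 5.41 in LECs, and the groups did not overlap. It was 1.72-fold higher in LECs (difference 0.78, SE 0.10, adjusted p = 0.00086), and its other probe gave a difference of 1.15. Lama2, the alpha chain of muscle and nerve laminin, was at least 1.79-fold higher, from a signal close to background (2 of 3 VEC arrays well above it). Lama1, the alpha chain of embryonic laminin, was at least 1.53-fold lower (adjusted p = 0.010), with 1 of 3 LEC arrays above background. The Lama1 difference of -1.90 became -0.91 when blocked by slide row. The Lama2 difference of 0.84 fell to 0.13 with normexp background correction and no longer passed (adjusted p = 0.20).

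A beta and a gamma chain join the alpha chain in each trimer. Lamb1 was 2.49-fold lower in LECs (difference -1.31, SE 0.09, adjusted p = 6.7e-05), and its 3 probes gave differences from -2.09 to -1.31. Lamb2 was 2.0-fold lower (difference -1.0, SE 0.07, adjusted p = 6.3e-05). Lamc1, the gamma chain shared by most laminins, stood at 5.02, 5.02 and 4.78 in VECs and at 4.68, 4.48 and 4.65 in LECs. The lowest VEC and the highest LEC array were thus close, and the gene was 1.26-fold lower (difference -0.34, SE 0.10, adjusted p = 0.025). This call was lost without VEC 2, VEC 3, LEC 7 or LEC 8, when blocked by slide row (-0.26) and without scaling between arrays (-0.11). Lamb3, the beta chain that pairs with Lama3, was well above background on no array. Lamc3 was above it on VEC 2 and LEC 7 only.

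The proteins that link the networks were split. Perlecan (Hspg2), the large heparan sulfate proteoglycan, stood at 5.85, 5.90 and 5.81 in VECs and at 3.02, 2.99 and 3.15 in LECs. It was 6.95-fold lower in LECs (difference -2.80, SE 0.07, adjusted p = 1.3e-06), and its other probe gave -2.93. Agrin (Agrn), the other heparan sulfate proteoglycan of the sheet, stood at 5.45, 5.45 and 5.50 against 5.41, 5.47 and 5.52. Its groups overlapped, and the difference was -0.01 (95% confidence interval -0.16 to 0.14, adjusted p = 0.94). Among the nidogens, which bridge laminin and collagen IV, Nid1 was 1.59-fold lower in LECs (difference -0.67, SE 0.07) and Nid2 was 2.04-fold higher (difference 1.03, SE 0.09).

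Types XV and XVIII collagen are the multiplexins, proteoglycan collagens of the outer face of basement membranes, and endostatin is cut from the latter. They went in opposite directions. Col15a1 stood at 1.70, 1.72 and 1.76 in VECs and at -4.56, -4.21 and -4.64 in LECs, of which only LEC 6 was well above background. Col18a1 stood at 1.42, 1.24 and 1.36 in VECs and at 5.16, 4.98 and 5.06 in LECs. The arrays of each group nearly coincided for both genes. Col15a1 was at least 66.6-fold lower in LECs (adjusted p = 6.8e-07; its second probe gave a bound of 47.9-fold). Col18a1, with 3 GC boxes in the stretch printed above, was 13.3-fold higher (difference 3.73, SE 0.08, adjusted p = 8.0e-07).

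Fibrillar collagens, which form the load-bearing fibers of connective tissue and are mostly made by fibroblasts, lay near or below the 75th percentile of the arrays in both populations. In LECs, 4 of the 6 genes were higher and the other two did not pass. For Col3a1, the fiber collagen of vessels and gut wall, levels were -2.58, -3.30 and -2.25 in VECs and -1.23, -1.15 and -1.33 in LECs. The LEC arrays all lay above the VEC arrays, among which VEC 3 was lowest. It was 2.78-fold higher in LECs (difference 1.48, SE 0.26, adjusted p = 0.0035). Col1a1, a chain of type I collagen, was 1.67-fold higher (difference 0.74, SE 0.21, adjusted p = 0.021), and Col1a2, its partner chain, did not pass (difference 0.53, SE 0.22, adjusted p = 0.076). The other Col1a1 probe gave 0.70 (SE 0.25, limma adjusted p = 0.051) and did not pass. The Col1a1 call was lost under 8 of 22 alternatives, stricter thresholds among them, and its difference ran from 0.215 to 0.968 over all 22. Among the 8 were the fits without LEC 6 (0.64) or LEC 7 (0.70) and the block by slide row (0.94). Col1a2 passed without scaling between arrays (0.75), with normexp background correction (0.43) and with an intensity trend.

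Type V collagen sets the diameter of type I fibers. Col5a1 was 2.48-fold higher in LECs (difference 1.31, SE 0.16, adjusted p = 0.00071). Col5a3, on its 1 tested probe, was well above background on no VEC array and stood at -1.72, -1.59 and -1.45 in LECs, at least 8.21-fold higher (adjusted p = 0.00013). With normexp background correction its difference was 1.24 in place of 3.38, and its other probe, well above background on VEC 2 alone, was not tested. Col5a2, the neighbor of Col3a1 on chromosome 1, did not pass (difference 0.34, 95% confidence interval -0.27 to 0.94). Pcolce, the enhancer of the protease that trims fibrillar procollagens, differed in the other direction. It stood at 1.79, 1.83 and 1.66 in VECs and at -1.18, -1.01 and -1.35 in LECs, with no overlap. It was 7.66-fold lower in LECs (difference -2.94, SE 0.11, adjusted p = 4.7e-06), and its other probe gave -2.66.

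**Figure D3:**
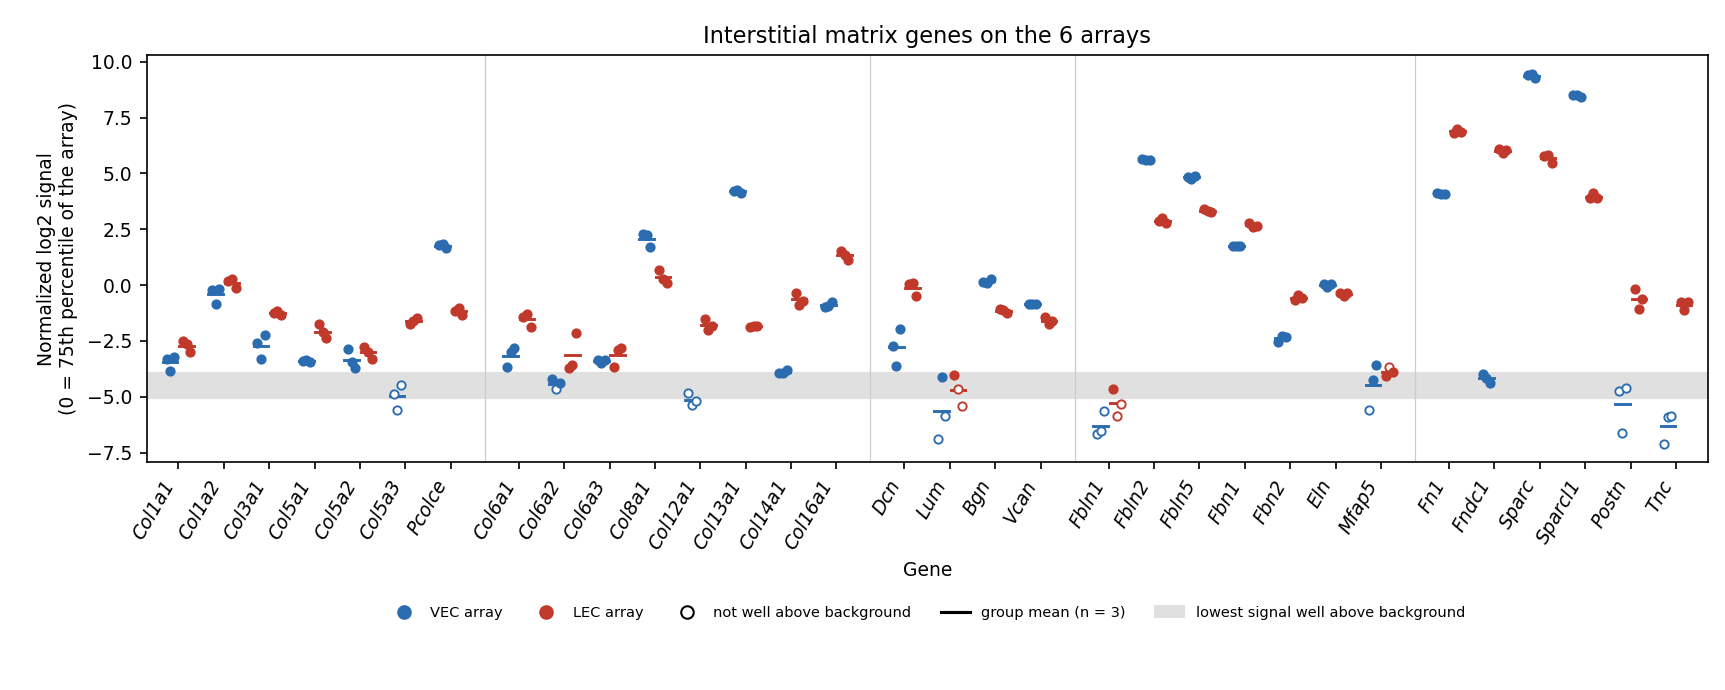
Normalized log2 signal (y axis, 0 is the 75th percentile of the array) of the 32 interstitial matrix genes (x axis, in the order fibrillar collagens and Pcolce, other collagens, proteoglycans, elastic fiber genes, fibronectin and matricellular genes) on the 3 VEC and 3 LEC arrays, with bars at the group means. Open points were not well above background and gray shading marks the faintest signals called above it. Fndc1 runs from a VEC mean of -4.18 to an LEC mean of 6.01, and Col13a1, Sparc and Sparcl1 lie far higher in VECs.

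The other interstitial collagens held the largest decrease among members well above background on all arrays. Col13a1, a transmembrane collagen of cell adhesions, stood at 4.21, 4.26 and 4.11 in VECs and at -1.89, -1.82 and -1.81 in LECs. It was 65.7-fold lower in LECs (difference -6.04, SE 0.07, adjusted p = 4.6e-07), and its second probe gave -5.97. Col8a1, a short-chain collagen of vessel walls, was 3.30-fold lower (difference -1.72, SE 0.21, adjusted p = 0.00067). Its 120 bases before the start, printed above, hold 3 GC boxes.

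The fibril-associated collagens, which decorate the surface of fibers, were higher in LECs for all 3 genes. Col14a1 stood at -3.93, -3.92 and -3.79 in VECs and at -0.36, -0.87 and -0.70 in LECs, and was 9.44-fold higher (difference 3.24, SE 0.14, adjusted p = 8.9e-06, and 1.83 with normexp background correction). Col16a1 was 4.71-fold higher (difference 2.24, SE 0.12). Col12a1 was well above background on no VEC array and at least 7.62-fold higher (adjusted p = 2.4e-05), with a difference of 3.34 that became 1.12 with normexp.

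Type VI collagen makes the beaded filaments between the basement membrane and the fibers. Col6a1 was 3.07-fold higher in LECs (difference 1.62, SE 0.26, adjusted p = 0.0022). Its neighbor Col6a2 stood at -4.20, -4.65 and -4.38 in VECs and at -3.70, -3.59 and -2.12 in LECs. The VEC values lay at the edge of the background, and LEC 8 stood apart from LEC 6 and 7. Col6a2 was at least 2.36-fold higher (adjusted p = 0.042), a call lost without any 1 VEC array and when blocked by slide row, whereas without LEC 8 the difference was 0.77 (against 1.27) and passed. Col6a3 did not pass on its brighter probe (difference 0.27, SE 0.23) and passed on the other (0.75, SE 0.20, adjusted p = 0.016). Without LEC 6 the brighter probe gave 0.54 and passed.

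Proteoglycans are core proteins with glycosaminoglycan chains. Decorin (Dcn), the small proteoglycan that coats collagen fibers, stood at -2.74, -3.62 and -1.96 in VECs and at 0.06, 0.09 and -0.49 in LECs. VEC arrays spread widely, but the highest of them lay below the lowest LEC array. Dcn was 6.33-fold higher in LECs (difference 2.66, SE 0.43, adjusted p = 0.0022), and the difference was 1.71 with normexp background correction. Its near relative biglycan (Bgn) was 2.49-fold lower (difference -1.31, SE 0.07). Versican (Vcan), a large hyaluronan-binding proteoglycan, was 1.69-fold lower (difference -0.76, SE 0.09, adjusted p = 0.00062). Lumican (Lum), the neighbor of Dcn on chromosome 10, was well above background on VEC 3 and LEC 6 only.

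Elastic fibers consist of an elastin core in a sheath of fibrillin microfibrils, and fibulins join the parts. Both fibrillins were higher in LECs, and Fbln2, Fbln5 and elastin were lower. Fbn1 was 1.89-fold higher in LECs (difference 0.92, SE 0.07, adjusted p = 0.00010) and Fbn2 3.52-fold higher (difference 1.82, SE 0.10). Fbln2 stood at 5.65, 5.58 and 5.62 in VECs and at 2.87, 2.98 and 2.79 in LECs. It was 6.66-fold lower in LECs (difference -2.73, SE 0.07, adjusted p = 1.5e-06), and Fbln5, required for elastic fiber assembly, was 2.82-fold lower (difference -1.49, SE 0.07). Elastin itself (Eln) was 1.34-fold lower (difference -0.42, SE 0.08, adjusted p = 0.0037), a call lost without scaling between arrays (-0.20). Fbln1 was well above background on LEC 6 only. Mfap5, a microfibril glycoprotein, was above it on 2 arrays of each group.

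Fibronectin and the matricellular proteins differed in both directions and held the widest difference of all members, that of Fndc1. Fibronectin (Fn1), the adhesive glycoprotein that integrins assemble into fibrils, stood at 4.12, 4.07 and 4.06 in VECs and at 6.79, 6.98 and 6.87 in LECs. It was 6.95-fold higher in LECs (difference 2.80, SE 0.07, adjusted p = 1.4e-06), and its 3 probes gave differences from 2.80 to 2.97. Fndc1, a secreted protein with fibronectin type III domains, stood at -4.00, -4.15 and -4.39 in VECs and at 6.09, 5.90 and 6.04 in LECs. The VEC arrays were only just above background, and every LEC array lay far above them. It was 1167-fold higher (difference 10.19, SE 0.12, adjusted p = 4.6e-07). Its other 4 probes gave differences from 3.66 to 7.32, and none of them had every VEC array well above background.

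SPARC and its relative SPARC-like 1 are secreted collagen-binding proteins that counter cell spreading, and both were lower in LECs. Sparc stood at 9.42, 9.46 and 9.27 in VECs and at 5.79, 5.85 and 5.45 in LECs. Sparcl1, also known as hevin, stood at 8.53, 8.51 and 8.41 against 3.88, 4.13 and 3.89. No array of a group approached the other group. Sparc was 12.9-fold lower in LECs (difference -3.69, SE 0.12, adjusted p = 3.6e-06), with -4.49 on its other probe, and Sparcl1 was 22.9-fold lower (difference -4.52, SE 0.09, adjusted p = 7.1e-07).

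Periostin (Postn) and tenascin C (Tnc), matricellular proteins of remodeling tissue, were well above background on no VEC array and on all 3 LEC arrays on the probes read here. Of the other Postn probes, 1 was above it on VEC 4. Postn stood at -4.72, -6.62 and -4.59 in VECs and at -0.17, -1.08 and -0.60 in LECs, and Tnc at -7.10, -5.91 and -5.84 against -0.77, -1.13 and -0.74. The LEC values of both lay below the 75th percentile of the array. Postn was at least 16.0-fold higher in LECs (adjusted p = 0.00073) and Tnc at least 14.5-fold (adjusted p = 4.9e-05). The VEC signals were background, and the fitted difference moved with single arrays, for Postn from 4.69 to 4.04 without VEC 3 and 4.07 without LEC 6, and for Tnc from 5.41 to 6.33 without VEC 3 and 6.22 without VEC 4. With normexp background correction the differences were 1.76 for Postn and 2.23 for Tnc.

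Of the 54 genes, 22 had more than 1 tested probe, and for all 22 the tested probes differed in the same direction. For Agrn (-0.01) and Col4a5 (0.02), 1 of these probes lay near 0. Second probes too dim to be tested pointed the other way for Lama2 (-0.56), Col5a3 (-1.23) and Col16a1 (-0.29). That of Col12a1 pointed the same way (1.46). The sizes on tested probes were less alike. Vcan gave -0.76 and -0.95 on probes for its accession NM_172955 and -3.50 on a probe for the transcript NM_001081249. Fbn2 gave 1.82 and 4.44 on 2 probes of the same transcript, the second with no VEC array well above background. For Fndc1, Vcan and Fbn2 the probe chosen thus sets the size of the difference but not its sign.

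**Figure D4:**
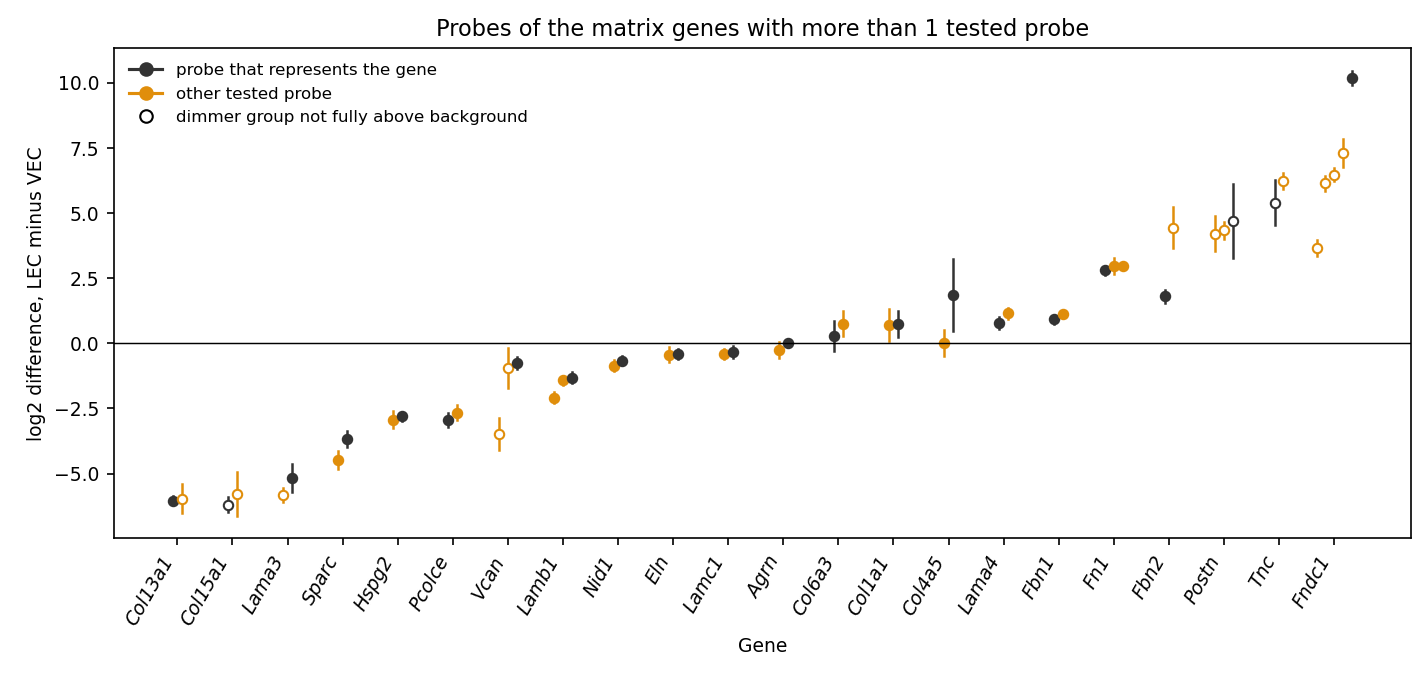
Difference in normalized log2 signal (LEC minus VEC, y axis) for each tested probe of the 22 matrix genes with more than 1 tested probe (x axis), with 95% confidence intervals (n = 3 arrays per group). Dark points are the probe that represents the gene, orange points the others, and open points have a dimmer group not well above background on all its arrays. Probes of a gene lie on the same side of 0, but spread widely for Fndc1 (3.66 to 10.19), Vcan and Fbn2.

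Genes that make collagen ready for assembly were examined beside the members. Tests were possible for 31 of 34 such genes, with 15 higher in LECs, 8 lower and 8 short of the threshold. The share that passed was 74.2% (48.4% higher and 25.8% lower). Over all named genes tested it was 66.9% (34.9% and 32.0%). The lysyl oxidases, which cross-link collagen and elastin, were split, with Loxl2 18.9-fold higher (difference 4.24, SE 0.24), Loxl4 8.14-fold higher and Loxl3 at least 7.54-fold higher, but Lox 4.18-fold lower (difference -2.06, SE 0.09). The prolyl 3-hydroxylases P3h3 (15.7-fold) and P3h2 (at least 11.9-fold) were higher, and so was Adamts14, which trims procollagen (3.23-fold). P4ha2, a chain of prolyl 4-hydroxylase, was 5.74-fold lower, the collagen galactosyltransferase Colgalt2 was 3.73-fold lower and the collagen chaperone Serpinh1 was 2.32-fold lower. The count of lower genes was 5 in place of 8 when blocked by slide row or without scaling between arrays.

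Among 17 further basement membrane genes, 13 were tested, 3 were higher, 5 were lower and 5 did not pass. The share that passed was 61.5%, below the 66.9% over all named genes tested. Vwa1, a perlecan-binding protein, was 21.0-fold lower in LECs (difference -4.39, SE 0.08), Tinagl1 was 4.69-fold lower and nephronectin (Npnt), an integrin ligand, was at least 6.23-fold lower. The hemicentin Hmcn1 was 10.0-fold higher (difference 3.33, SE 0.14). Among 29 further interstitial genes, 22 were tested, 17 were higher, 3 were lower and 2 did not pass. That is 77.3% higher and 13.6% lower, against 34.9% and 32.0% over all named genes tested. Of the 22, 6 entered through 1 group only. Among the 16 well above background on all arrays, 12 were higher and 2 lower. Of the genes with full signal on the 6 arrays, those that differed most were tenascin X (Tnxb), 85.3-fold higher (difference 6.41, SE 0.09), and the leucine-rich proteoglycan Prelp, 49.5-fold higher (difference 5.63, SE 0.11). The elastic fiber protein Emilin1 was 10.6-fold higher and the latent TGF-beta binding protein Ltbp3 was 6.67-fold higher. Abi3bp (at least 146-fold) and the cartilage matrix protein Comp (at least 63.2-fold) stood near background in VECs. Thrombospondin 1 (Thbs1) was 2.17-fold lower, Mfap4 1.44-fold lower and Emilin2 at least 5.56-fold lower.

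Members that lie next to each other on a chromosome, with no coding gene between them, made 6 pairs. Col4a1 with Col4a2 and Col4a3 with Col4a4 were lower on both sides, and Col6a1 with Col6a2 were higher on both sides. Col18a1, 2 coding genes away from Col6a1, was also higher. In Col3a1 with Col5a2 and Col4a5 with Col4a6, 1 gene passed and its neighbor did not, and in Dcn with Lum the neighbor was not tested. Neighboring genes are not independent observations.

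Many matrix genes are made mainly by other cells of the gut wall, so markers of those cells were summed on each array (linear signal, with the 75th percentile set to 1). Among 12 fibroblast markers, 10 were tested, with 3 higher in LECs, 5 lower and 2 short of the threshold. The higher ones were Islr (14.8-fold), Loxl1 (at least 3.43-fold) and Twist2 (at least 1.41-fold). The sum was 58.0 to 70.7 in LECs and 136 to 143 in VECs, most of it from Cd81, a membrane protein of many cell types, which was 2.62-fold lower in LECs. Without Cd81, a step chosen after seeing the data like the other sums without 1 gene, the ranges overlapped, at 15.2 to 20.05 in LECs and 19.1 to 21.3 in VECs. Most of what remained came from Fstl1, which did not pass (mean log2 signal 3.78 in LECs and 3.98 in VECs). The defining marker Pdgfra was well above background on no LEC array and 1 VEC array, as was Dpt. Pericyte markers summed to 79.7 to 84.9 in LECs and 46.7 to 50.8 in VECs, with Kcnj8 (144-fold) and Abcc9 (8.51-fold) higher, 2 of 9 lower and 5, among them Pdgfrb and Rgs5, not past the threshold. Without Kcnj8 the order turned, with 26.0 to 29.8 in LECs and 46.4 to 50.4 in VECs. Smooth muscle markers summed to 71.0 to 82.8 in LECs and 65.1 to 75.3 in VECs, with 1 of 8 tested higher and 2 lower.

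Enteric glia markers moved with the LEC group. All 5 tested of 6 were higher, with sums of 3.16 to 4.21 in LECs and 0.34 to 0.49 in VECs. S100b was 15.5-fold higher, Sox10 4.25-fold, Fabp7 at least 20.4-fold and Gfap at least 2.18-fold. Epithelial markers summed to 2.19 to 2.73 in LECs and 1.93 to 4.21 in VECs, with 1 of 5 tested higher and 2 lower. Hematopoietic markers summed to 68.2 to 72.9 in LECs and 79.6 to 85.4 in VECs (3.74 to 4.31 and 4.498 to 5.59 without Itgam), and Ptprc, which encodes the gate protein CD45, was above background on 2 arrays of each group. The part of these cells in the matrix differences was not tested.

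**Figure D5:**
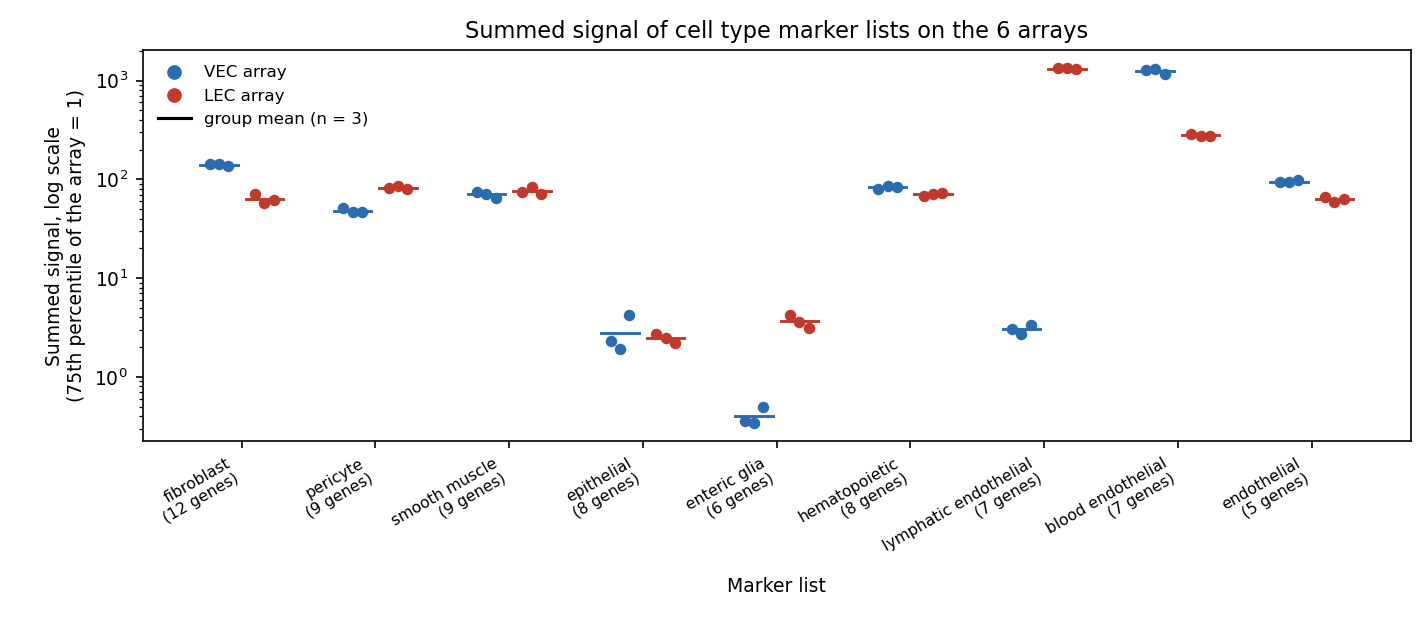
Summed linear signal of marker lists (y axis, log scale, 75th percentile of the array set to 1) on the 3 VEC and 3 LEC arrays, with bars at the group means; the x axis names each list and its number of genes. Lymphatic sums are 1297 to 1335 in LECs and 2.71 to 3.37 in VECs, glial sums are low but higher in LECs, and fibroblast sums are higher in VECs, where Cd81 gives 85.6% of the sum.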

How the data were processed

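Transcripts were measured in 6 sorted samples, 3 VEC and 3 LEC, on one-color arrays. The files that the authors deposited hold spot intensities from Agilent Feature Extraction 12.0.3.1 (per the file headers), background-subtracted and not scaled between arrays. A table of log2 values deposited for the same arrays differed from the log2 intensity by a fixed offset on each array, to within 0.01, for 99.9% of probes or more, and served as an alternative. Other array settings of the study's software are not given in the sources used here.

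From the intensities, log2 values were taken, outlier spots set missing, replicate spots averaged and arrays scaled by subtracting their 75th percentile. Of 56605 probes, 58.3% were named by RefSeq accession (without versions, GRCm38.p6, for names and neighbors). The 33776 probes whose signal was well above background throughout 1 group or both were tested (limma 3.58.1, R 4.3.3, lmFit and eBayes, two-sided, Benjamini-Hochberg over all of them). No spot was saturated, and the number of arrays limits the precision. On simulated data with 33774 probes and 50 changed at each size, the fit recovered 22 at 1.5-fold, 33 at 2-fold, 48 at 5-fold and 50 at 20-fold. There were 11 false among 164 calls. In the data, 10537 probes passed as higher and 11066 as lower. Far fewer probes were changed in the simulation, so its rates do not carry over.

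The members and all lists were chosen with earlier results of these data known. Named were all 54 members, the sort genes, up to 4 genes per direction of each further list with the largest difference and up to 2 with the largest lower bound, and markers at or near background; other genes of the marker lists were named after their values were seen. Some genes of these lists are withheld for evaluation and not reported here. Alternatives were other background corrections, scalings, filters, the use of outlier spots, a floor, the methods' one-way test, an intensity trend, the deposited table, other probe rules and thresholds, the slide row as a block and each array left out. Normexp (offset 50) used the median signals.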

Additional observations from a re-analysis of the deposited data

How the results depend on the processing

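Of the 44 members that passed, none changed direction under any alternative that gave it a value. Apart from the rule of at least 2-fold, 37 passed under each of these. With that rule counted, 30 of them had 22 alternatives, and 7, which the filter on all arrays leaves out, had 21. The other 7 of the 44 were Col4a5, Lama1, Lama2, Lamc1, Col1a1, Col6a2 and Eln. Values changed sign only for members that did not pass: Col4a6 (-0.030 with normexp, and -0.094 to 0.356 with 1 array left out, below 0 without VEC 3 or LEC 7), Agrn (0.024 with normexp, 0.109 with quantile normalization, 0.221 without scaling, and -0.033 to 0.021 with 1 array left out, above 0 without VEC 4 or LEC 6) and Col6a3 (-0.276 with the slide row as a block). Without scaling, which shifted the median of all probes by 0.23, 6916 probes were lower in LECs (against 11066), 65.1% of calls were higher (against 48.8%), and 5 collagen modification genes were lower (against 8), as with the slide row as a block (5). With at least 2-fold, 3 basement membrane genes were higher (against 5), 9 collagen modification genes were higher and 4 lower (against 15 and 8), 5 further matrix genes were lower (against 8), and 3893 probes were higher and 4420 lower (against 10537 and 11066).

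Leaving out 1 array at a time gave 19 to 20 members higher and 22 to 23 lower. Normexp correction moved 20 members by over 1.5 times, all in the same direction and toward 0: Fndc1 (8.10 against 10.19), Col15a1 (-4.14 against -6.20), Col13a1 (-5.37 against -6.04), Tnc (2.23 against 5.41), Lama3 (-4.41 against -5.17), Postn (1.76 against 4.69), Col4a3 (-2.20 against -4.60), Col4a4 (-1.11 against -3.89), Col5a3 (1.24 against 3.38), Col12a1 (1.12 against 3.34), Col14a1 (1.83 against 3.24), Dcn (1.71 against 2.66), Lama1 (-0.61 against -1.90), Col4a5 (0.72 against 1.85), Fbn2 (1.23 against 1.82), Col6a1 (0.84 against 1.62), Col3a1 (0.87 against 1.48), Col5a1 (0.51 against 1.31), Col6a2 (0.44 against 1.27, which did not pass) and Lama2 (0.13 against 0.84, which did not pass). For the 10 members given as lower bounds, these differences are smaller than the bound. The floor at the lowest signal well above background made Lama1 -0.62, which did not pass (adjusted p = 0.052). LEC 7 and 8 lay in 1 row of the slide and the other arrays in another, so the block compares LEC 6 with the VEC arrays of its row. No paired analysis was possible because the groups share no replicate numbers. Signal over background limits Col4a3, Col4a4, Lama1, Lama2, Col15a1, Col5a3, Col6a2, Col12a1, Postn and Tnc to lower bounds. The cause of these changes was not tested.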

Other observations

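The interstitial members leaned to 1 side of their group mean on some arrays. On LEC 6, 21 of 29 tested interstitial genes lay above their LEC mean (median deviation 0.08 on the log2 scale), on LEC 8 8 of 29 did (-0.06), and on LEC 7 16 did (0.02). Of the VEC arrays, 22 of 29 lay above the VEC mean on VEC 2 (0.03), 11 on VEC 3 (-0.04) and 17 on VEC 4 (0.04). Basement membrane genes showed medians from -0.03 to 0.01 over the 6 arrays. These counts were not made over all tested genes, so whether the lean is particular to matrix genes was not tested. Genes of 1 array share its scaling and are not independent observations.

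Partner subunits of known trimers did not always share a direction. Col4a3 and Col4a4 were lower in LECs and Col4a5 was higher on 1 of its 2 probes. Col6a1 and Col6a2 were higher, and Col6a3 passed on 1 of its 2 probes.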
